A study of Mus musculus with 8 samples.

Results

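The genes described here encode the subunits of the oxidative phosphorylation machinery, complexes I to V of the mitochondrial inner membrane. They were chosen by symbol from the table of estimated counts: mt-Nd, mt-Co, mt-Cytb and mt-Atp for the subunits encoded in mitochondrial DNA, and Nduf subunit, Sdha to Sdhd, Uqcr, Cox4 to Cox8 and Atp5 symbols for those encoded in the nucleus. Of the 14884 genes in the table, 98 matched, 13 of them mitochondrial and 85 nuclear. The mitochondrial genes comprised 7 of complex I, 1 of complex III, 3 of complex IV and 2 of complex V. The nuclear genes comprised 40 of complex I, 4 of complex II, 8 of complex III, 16 of complex IV and 17 of complex V. All but Cox8b, whose counts were too low for the fit, were tested.

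The study's title places miR-218-5p in the scaling of excitatory and inhibitory synapses. In 4 adult male wild-type mice, 3 months old and numbered 33 to 36, a miR-218-5p inhibitor made of locked nucleic acid (LNA) was injected into primary somatosensory cortex on one side (group LNA218), and a scrambled control on the opposite side (group NC). Both groups were therefore injected, and each animal was its own control. Polyadenylated RNA was taken from the injection sites after 10 days, giving 1 library per hemisphere, 8 in all, with 17409882 to 25154657 estimated counts. The inhibitor was on the right in mice 33, 34 and 36 and on the left in mouse 35, so side and treatment were only partly separated. The 2 libraries of mouse 34 stood furthest apart, with deviations from their group means that correlated at -0.60, and the LNA218 libraries of mice 34 and 36 were high in choroid plexus markers. Group medians and the fold changes of the genes described one by one are therefore, for the most part, also given without mouse 34.

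Oxidative phosphorylation carries electrons from NADH and succinate through complexes I to IV to oxygen, pumping protons that drive ATP synthesis by complex V. Complex II has nuclear-encoded subunits only, whereas the other complexes combine subunits from both genomes. Mitochondrial mRNAs are cut from long polycistronic transcripts and most carry short poly(A) tails, while the nuclear mRNAs are transcribed singly and translated in the cytosol. In neurons this system supplies most of the ATP spent on ion gradients and synaptic transmission.

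The injected LNA was directed against the microRNA shown first, because its seed, bases 2 to 8 in capitals, defines the match sought in the subunit mRNAs. The mature sequence, from RefSeq (GRCm38.p6), is the same at Mir218-1 (chr5:48223966-48223986, plus strand) and Mir218-2 (chr11:35616840-35616860, plus strand). In the annotated 3′ UTRs of GENCODE M21 (GRCm38), 4 of 82 member genes held the complementary site AAGCACA, which is 4.88%, against 1913 of 13880 tested genes, which is 13.8%. The members' 3′ UTRs had a median length of 157.5 bases and those of all tested genes 985. All 5 sites are given with their flanks, the match in capitals, on the mRNA strand:
mmu-miR-218-5p: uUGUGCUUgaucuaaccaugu
Cox7b, chromosome X: gaatgaagaaatAAGCACAgagctgtttt
Ndufa10, first site, chromosome 1: tgttcttttctgAAGCACAttagagcaaa
Ndufa10, second site, chromosome 1: tgtggctgctccAAGCACAtgtaacttgc
Ndufb4, chromosome 16: gtcagagtcggaAAGCACAgctcagagaa
Uqcrc2, chromosome 7: gcccagaccagcAAGCACAtcaaagtcag

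A seed match is a run of letters and was not tested as a site of repression. Uqcrc2, a core protein of complex III, was at 192, 187, 187 and 189 CPM (estimated counts scaled to a common library size) under LNA218 in mice 33, 34, 35 and 36 and at 187, 177, 181 and 182 CPM under NC. It was slightly higher in LNA218 in 4 of 4 animals, although the groups overlapped, with a log2 fold change of 0.055 ± 0.085 (SE). The other 3 genes holding a match had log2 fold changes of -0.092 ± 0.12 for Cox7b, 0.039 ± 0.092 for Ndufa10 and -0.14 ± 0.20 for Ndufb4. No gene with a match passed the test (adjusted p = 0.999 for each, edgeR).

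Levels in control-injected cortex differed between the genomes and within each complex. Between genes, levels are compared as CPM per kilobase of annotated transcript, as mean ± SD of the 4 NC libraries. mt-Co1, the catalytic core of complex IV, was highest at 9171 ± 718, followed by mt-Co3 at 4208 ± 916 CPM per kilobase. mt-Nd1, a membrane subunit of complex I, and mt-Cytb, the cytochrome b of complex III, came next at 3324 ± 245 and 3292 ± 199, closer to each other than their spread. mt-Nd4 was at 2652 ± 269, and mt-Nd2 and mt-Co2 at 1946 ± 163 and 1929 ± 318 CPM per kilobase did not differ beyond their spread, nor did mt-Nd3 and mt-Nd6 at 766 ± 109 and 738 ± 60.8. mt-Atp8 was lowest at 145 ± 41.2. The annotated genes overlap by 43 bases for mt-Atp8 and mt-Atp6, 7 for mt-Nd4l and mt-Nd4, and 14 for mt-Nd5 and the oppositely transcribed mt-Nd6, so counts within these pairs could be divided differently. Nuclear copies of mitochondrial DNA, and the processed pseudogenes of many nuclear subunits, make the counting of such genes uncertain too.

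Among the nuclear members the median level was 104 CPM per kilobase, against 1929 for the mitochondrial ones. By complex, the nuclear medians were 80.2 CPM per kilobase for complex I, 85.1 for II, 137 for III, 182 for IV and 177 for V. The highest nuclear genes were Cox4i1, Cox8a and Cox6a1, structural subunits of complex IV, at 676 ± 86.9, 667 ± 95.2 and 658 ± 123 CPM per kilobase. Atp5b, the catalytic beta subunit of ATP synthase, followed at 642 ± 48.2, and these 4 could not be ordered beyond their spread. Complex I was led by Ndufa4 at 264 ± 26.7 CPM per kilobase, a protein named for complex I that later work assigned to complex IV.

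Paired isoforms were very unequal. The widely expressed forms Cox4i1, Cox6a1, Cox6b1 and Cox7a2 had 676, 658, 230.0 and 159 CPM per kilobase. Their tissue-restricted relatives Cox4i2, Cox6a2, Cox6b2 and Cox7a1, known respectively from lung, heart and skeletal muscle, testis, and again muscle, had 2.64, 11.2, 2.97 and 3.04. Of the 3 genes that encode the same mature c-ring protein of ATP synthase, Atp5g3 stood at 313 ± 23.2 and Atp5g2 at 33.4 ± 3.77 CPM per kilobase. Atp5g1 was at 31.5 ± 2.45, a value that rests on an annotated transcript of 4715 bases, against 714 for Atp5g3 and 441 for Atp5g2. Before division by length the 3 genes had 224 CPM (Atp5g3), 149 CPM (Atp5g1) and 14.7 CPM (Atp5g2) in NC, so the place of Atp5g1 depends on the transcript chosen.

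**Figure D1:**
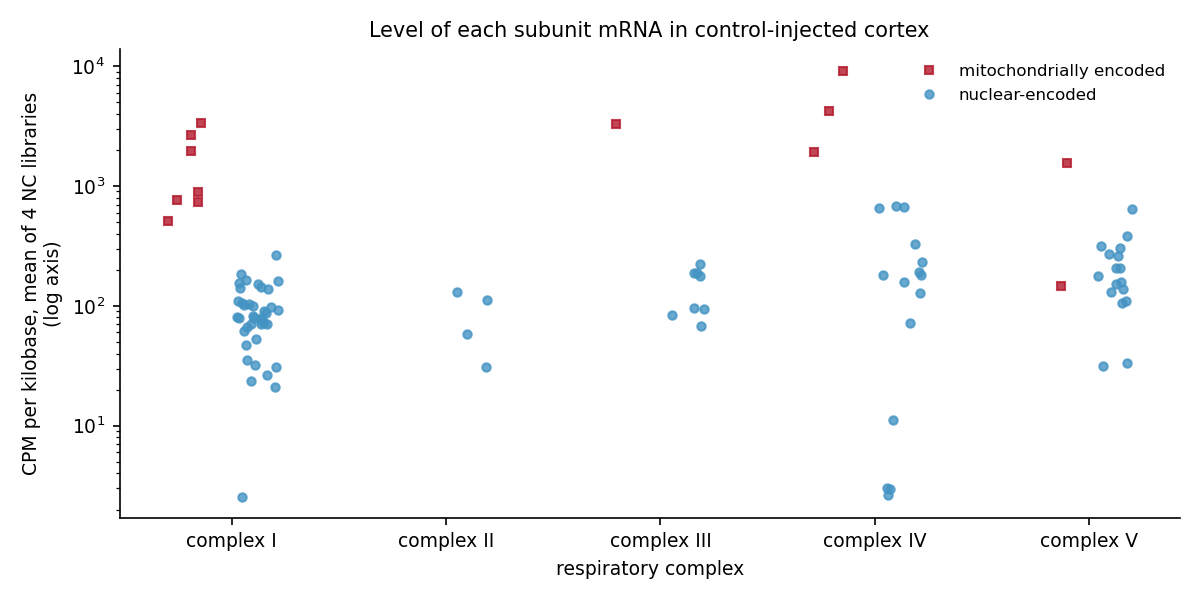
Level of each subunit mRNA in control-injected cortex, as CPM per kilobase (log axis, mean of 4 NC libraries), by respiratory complex. Squares are mitochondrially encoded and circles nuclear-encoded genes; the mitochondrial genes range from 145 to 9171 and the tested nuclear genes from 2.57 to 676.

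No subunit gene passed the paired test between the inhibitor and control hemispheres. edgeR's quasi-likelihood test called 0 of 97 members at an adjusted p of 0.05, with a background of 0% of 14506 genes called. At an unadjusted p under 0.05 it picked 0 members and 247 genes (1.70%, made up of 1.10% higher and 0.600% lower). DESeq2 called 0 members and 13 genes (0.0896%), and limma-voom called 0 genes. The lowest p of a member was 0.0750, for mt-Nd4l. No member had groups that did not overlap, against 1.38% of all tested genes. In bulk tissue such as this, fewer cells of a type and less RNA per cell cannot be told apart.

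The mitochondrially encoded genes had fitted log2 fold changes below 0 in 13 of 13 cases, where 52.8% of all tested genes were below 0. Their median was -0.37 (range -0.71 to -0.19), beside -0.0096 over all tested genes. These 13 values rest on shared transcripts and on the same 4 animals, and the animals disagreed: their median differences were 0.17, -1.03, -0.57 and 0.032 on the log2 scale in mice 33, 34, 35 and 36. All 13 genes were lower in LNA218 in mice 34 and 35, whereas 11 of 13 were higher in mouse 33 and 9 of 13 in mouse 36. Without mouse 34 the median of the fitted values was -0.14, and without mouse 33 it was -0.57. Without mice 34 and 36, whose choroid plexus markers were high, it was -0.26.

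As a share of each library, the 13 genes made up 3.68%, 1.87%, 2.36% and 3.65% of estimated counts in LNA218 of mice 33, 34, 35 and 36. The NC shares were 3.15%, 3.56%, 3.50% and 3.69%. The groups averaged 2.89% ± 0.92 and 3.48% ± 0.23 (SD, n = 4). The within-animal difference of -0.58 ± 1.01 percentage points (SD, n = 4) was smaller than its spread, and it was -0.21 without mouse 34 and -0.96 without mouse 33. The NC shares lay close together, while the LNA218 shares were spread out, with mice 34 and 35 low.

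**Figure D2:**
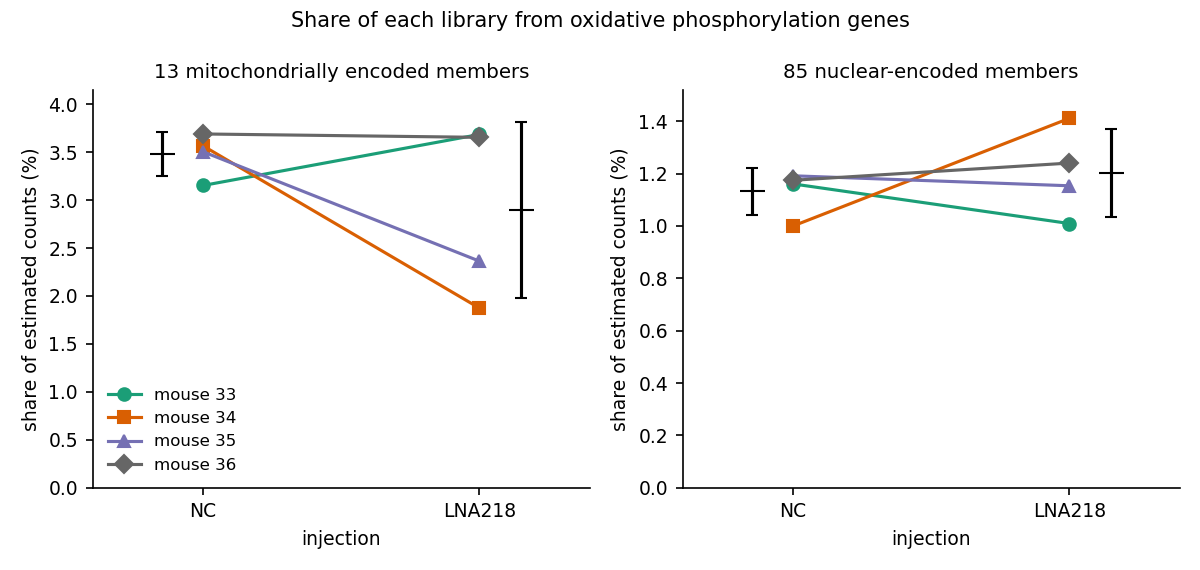
Share of each library's estimated counts (%) from the 13 mitochondrially encoded genes (left) and the 85 nuclear-encoded genes (right), with lines joining the libraries of 1 animal and bars giving mean ± SD of 4 libraries. The mitochondrial share is lower in LNA218 in mice 34 and 35, and the nuclear share is highest, at 1.41%, in LNA218 of mouse 34.

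Core subunits of complex I followed this pattern. mt-Nd4, one of its proton-pumping membrane subunits, was at 3913, 1597, 2349 and 3467 CPM in LNA218 of mice 33, 34, 35 and 36 and at 3354, 4095, 3339 and 3827 CPM in NC. mt-Nd5, the most distal of these, was at 1716, 638, 1091 and 1403 CPM in LNA218 and 1476, 1880.5, 1554 and 1544 CPM in NC. In both genes LNA218 was lowest in mouse 34, highest in mouse 33 and overlapped NC. Their log2 fold changes were -0.44 ± 0.23 and -0.49 ± 0.26 (SE), with unadjusted p of 0.0901 and 0.0928, and without mouse 34 they were -0.14 and -0.14. mt-Nd4l, which shares a transcript with mt-Nd4, was at 174, 48.7, 61.0 and 134 CPM in LNA218 and 127, 163, 164 and 147 CPM in NC. Here mice 34 and 35 were both far below their controls, and the log2 fold change was -0.71 ± 0.35, or -0.35 without mouse 34. The remaining mt-Nd genes had log2 fold changes of -0.43 ± 0.23 (mt-Nd2), -0.38 ± 0.24 (mt-Nd3), -0.37 ± 0.21 (mt-Nd6) and -0.26 ± 0.17 (mt-Nd1), and without mouse 34 these were -0.12, -0.16, -0.15 and -0.074.

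For complex III, mt-Cytb was at 4111, 1803, 2454 and 3911 CPM in LNA218 of mice 33 to 36 and at 3532, 4047, 3640.1 and 3844 CPM in NC, with a log2 fold change of -0.37 ± 0.21. For complex IV, mt-Co1 was at 16013, 7916, 9616 and 13889.9 CPM in LNA218 and 13339.8, 14391, 13297 and 15649.7 CPM in NC, with a log2 fold change of -0.31 ± 0.17. Both genes repeated the order seen in mt-Nd4, with mouse 34 lowest, and without that animal their fold changes were -0.10 and -0.12. mt-Co2, which carries the copper centre that accepts electrons from cytochrome c, was at 1169, 855, 562 and 1568 CPM in LNA218 and 1158, 1280.4, 1637 and 1202 CPM in NC. Its lowest LNA218 library was that of mouse 35, where the difference was -1.54 on the log2 scale, and its fold change was -0.42 ± 0.28, or -0.36 without mouse 34. mt-Co3 had the smallest fold change of the 13, -0.19 ± 0.13, from 2493, 2293, 2619 and 4381 CPM in LNA218 and 2665, 2689, 3898 and 3943 CPM in NC.

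Of the ATP synthase genes, mt-Atp6 did not follow the pattern of mt-Nd4 over animals. This gene for the proton-channel subunit a was at 585, 715, 1012 and 924 CPM in LNA218 of mice 33 to 36 and at 805, 731, 1937 and 750.4 CPM in NC. Its NC library of mouse 35 stood far above the other 3, and in mouse 34, where mt-Nd4 differed by -1.36, it differed by -0.033 on the log2 scale. Its differences were -0.46, -0.033, -0.94 and 0.30 in mice 33 to 36. Those of mt-Co3, the next gene along the mitochondrial genome, had the same signs, at -0.097, -0.23, -0.57 and 0.15. mt-Atp8 was at 27.8, 13.8, 20.5 and 32.5 CPM in LNA218 and 26.0, 31.1, 40.6 and 20.9 CPM in NC. It shares its transcript with mt-Atp6, and in mouse 34 it differed by -1.16. Their log2 fold changes were -0.28 ± 0.19 and -0.36 ± 0.29, and without mouse 34 they were -0.36 and -0.092.

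**Figure D3:**
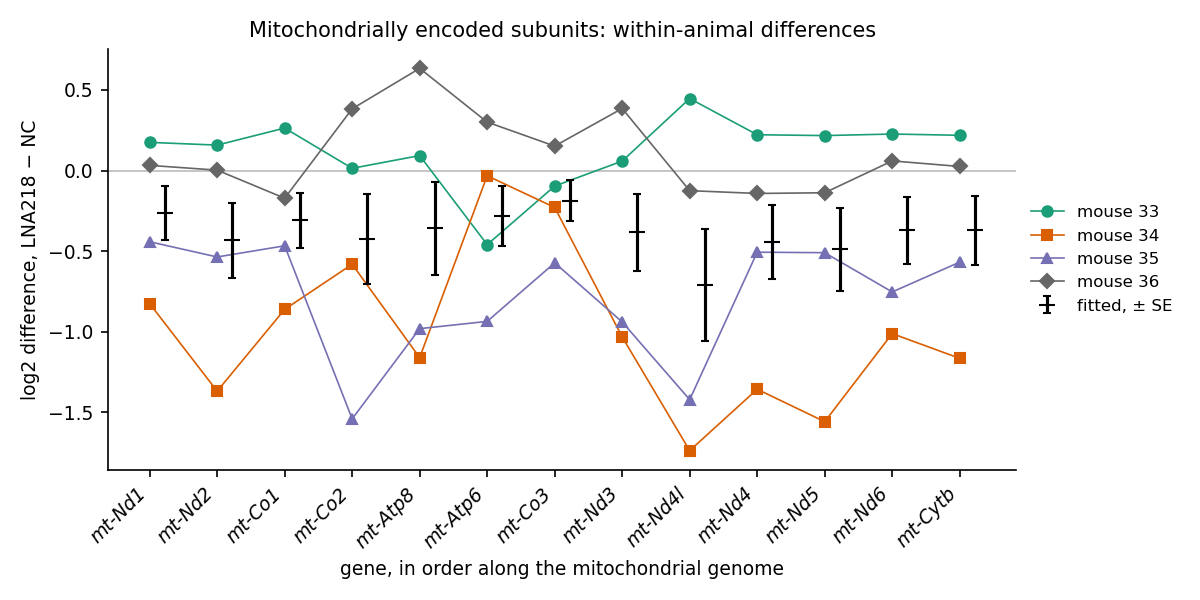
Within-animal log2 difference (LNA218 minus NC) of the 13 mitochondrially encoded genes in their order along the mitochondrial genome, 1 line per animal, with the fitted log2 fold change ± SE in black. Mice 34 and 35 lie below 0 for all 13 genes, mice 33 and 36 mostly above, and all fitted values are below 0.

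The nuclear-encoded subunits were centred close to 0 but moved together within each animal. Of 84 tested, 57 had fitted log2 fold changes above 0 and 27 below, where 47.2% of all tested genes were above 0, and their median was 0.046 (range -0.15 to 0.39). Their within-animal medians were -0.24, 0.53, -0.13 and 0.077 on the log2 scale in mice 33, 34, 35 and 36. In mouse 33, 72 of 84 were lower in LNA218, in mouse 34, 81 were higher, in mouse 35, 65 were lower, and in mouse 36, 68 were higher. Of all tested genes 50.1%, 51.3%, 49.2% and 48.4% were higher in these 4 animals. Without mouse 34 the median fitted value was -0.10, so its sign depends on that animal, and without mice 34 and 36 it was -0.20.

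The same signs over animals held in each of complexes I, III, IV and V. Complex I medians were -0.28, 0.54, -0.13 and 0.10 on the log2 scale in mice 33, 34, 35 and 36. Those of complex III were -0.22, 0.54, -0.25 and 0.037, those of complex IV -0.34, 0.48, -0.15 and 0.047, and those of complex V -0.083, 0.50, -0.12 and 0.041. Complex II differed in mouse 35, with medians of -0.23, 0.34, 0.11 and 0.067. The medians of the fitted log2 fold changes were 0.041 for complex I (28 genes above 0, 12 below), 0.071 for II (3 and 1), 0.048 for III (5 and 3), 0.037 for IV (8 and 7) and 0.061 for V (13 and 4). Without mouse 34 all 5 medians were below 0, at -0.11, -0.015, -0.081, -0.15 and -0.079, so the positive medians and the counts above 0 rest on that animal. The complexes thus differed from each other by less than the animals did.

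**Figure D4:**
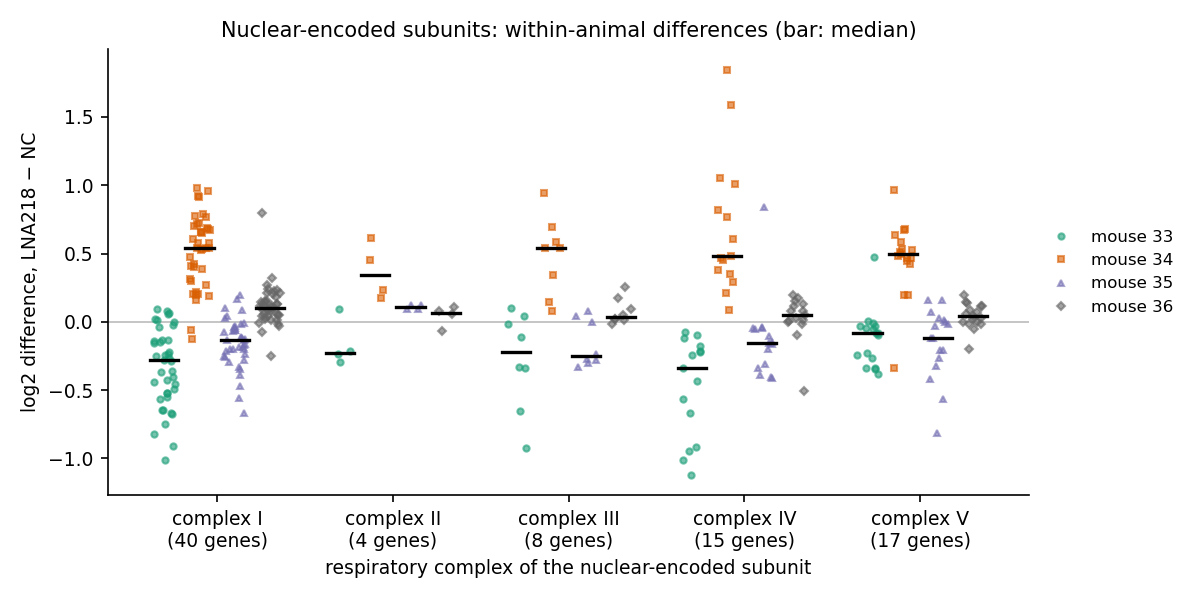
Within-animal log2 difference (LNA218 minus NC) of each tested nuclear-encoded gene, by complex and animal, with the median as a bar. In complexes I, III, IV and V the medians are below 0 in mice 33 and 35 and above 0 in mice 34 and 36, with the highest, 0.54, in mouse 34.

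Complex II held the nuclear member with the lowest p. Sdhb, its iron-sulfur subunit, was at 138, 173, 136 and 152 CPM in LNA218 of mice 33 to 36 and at 129.6, 113, 124 and 144 CPM in NC. It was higher in 4 of 4 animals with overlapping groups, and its log2 fold change was 0.23 ± 0.12 (SE, unadjusted p = 0.0894, adjusted p = 0.999). Without mouse 34 that value was 0.10. Sdhb and Uqcrc2 were the only 2 of 97 members higher in 4 of 4 animals, and 0 were lower in 4 of 4, where 4.58% and 4.05% of all tested genes were. The other subunits of complex II had log2 fold changes of -0.0064 ± 0.10 for Sdha, which binds the flavin, and 0.092 ± 0.13 and 0.050 ± 0.11 for the membrane anchors Sdhc and Sdhd, and without mouse 34 these were -0.064, -0.024 and -0.0064.

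In complex I, the supernumerary subunit Ndufa11 was at 88.1, 115, 83.8 and 109 CPM in LNA218 and 86.6, 72.5, 87.1 and 94.0 CPM in NC, with a log2 fold change of 0.21 ± 0.13. Ndufs7, the core subunit that holds the last iron-sulfur cluster before ubiquinone, had 0.23 ± 0.17, with 0.92 in mouse 34 and -0.15 in mouse 33. Without mouse 34 these fold changes were 0.064 and 0.0081. Ndufs1, the largest subunit of the complex, varied little, with within-animal log2 differences of 0.081, -0.056, 0.19 and 0.014 in mice 33 to 36.

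In complex III, Uqcrc1, the partner of Uqcrc2, had a log2 fold change of 0.13 ± 0.12, Uqcrfs1, the Rieske iron-sulfur protein, 0.11 ± 0.10, and Uqcrh, the hinge protein, 0.10 ± 0.13. Without mouse 34 these were 0.0012, 0.042 and -0.047. In complex IV, Cox4i1 was at 449, 718, 525 and 569 CPM in LNA218 and 531, 407, 539.6 and 538 CPM in NC, with a log2 fold change of 0.15 ± 0.17. Cox6a1 was at 259, 600.3, 402 and 370.4 CPM in LNA218 and 383, 289.8, 461 and 370.0 CPM in NC, with 0.067 ± 0.23. In both genes LNA218 of mouse 34 was the highest of the 8 libraries and NC of mouse 34 was among the lowest. Cox7a2l, which joins complexes III and IV into supercomplexes, had 0.074 ± 0.11. Without mouse 34 all 3 turned negative, with -0.062 for Cox4i1, -0.25 for Cox6a1 and -0.024 for Cox7a2l.

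In complex V, Atp5a1 and Atp5b, the alpha and beta subunits of the catalytic head, had log2 fold changes of 0.15 ± 0.11 and 0.087 ± 0.13, or 0.052 and -0.040 without mouse 34. Atp5e, the epsilon subunit of the central stalk, was at 79.5, 132, 82.0 and 117 CPM in LNA218 and 81.3, 67.5, 98.7 and 102 CPM in NC, with a log2 fold change of 0.21 ± 0.19 that was -0.029 without mouse 34. Atp5g2 had differences of 0.48, -0.34, -0.013 and -0.20 in mice 33 to 36, while its relative Atp5g3 had -0.080, 0.54, -0.031 and 0.15. In mouse 34 Atp5g2, Ndufb1 and Ndufs1 were the 3 of 84 nuclear members that were lower in LNA218, and in mouse 33 the same 3 were among the 12 that were higher. The rare isoforms were poorly determined, as with Cox6b2 at 0.39 ± 0.42 and Cox7a1 at 0.13 ± 0.48, which became -0.10 and -0.46 without mouse 34.

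Cox8b, the muscle form of subunit 8, had 3, 43, 5.01 and 23 estimated counts in LNA218 of mice 33, 34, 35 and 36 and 0, 3, 2 and 6 in NC. Its LNA218 libraries of mice 34 and 36 were high. With no filter on low counts its log2 fold change was 2.46 ± 0.57 (adjusted p = 0.999, edgeR), a value that depends on few counts. Summed choroid plexus markers were high in the same libraries, at 2625 and 1718 CPM in LNA218 of mice 34 and 36 and 24.4 to 88.8 CPM in the other 6 libraries, and their part in this difference was not tested.

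Set against each other within an animal, the genomes moved in opposite directions in mice 33 and 34. The mean log2 difference of the mitochondrial members minus that of the nuclear members took values of 0.42, -1.52, -0.65 and 0.028 in mice 33, 34, 35 and 36. Over animals it was -0.43 ± 0.85 (SD, n = 4), smaller than its spread, and -0.065 without mouse 34. The ratio of mitochondrial to nuclear member counts was 3.65, 1.33, 2.05 and 2.95 in LNA218 of mice 33 to 36 and 2.72, 3.56, 2.94 and 3.14 in NC. Again the NC libraries lay close together and mice 34 and 35 were low in LNA218. Libraries also spread more in LNA218 over the whole transcriptome: the SD of CPM was larger in LNA218 than in NC for 11 of 13 mitochondrial and 79 of 84 nuclear members, and for 74.5% of all tested genes.

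Members tended to differ in opposite directions in mice 33 and 34. Across the 84 nuclear members the differences in mouse 33 and mouse 34 correlated at r = -0.59, and across the 13 mitochondrial members at r = -0.85, while all 10512 genes averaging more than 3 log2 CPM gave r = -0.52. These are descriptions across genes, which share 4 libraries and are not independent replicates. Over the other 5 pairs of animals r ran from -0.35 (mice 35 and 36) to 0.11 (mice 33 and 35) for the nuclear members, and from -0.56 (mice 33 and 36) to 0.43 (mice 34 and 36) for the mitochondrial members.

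**Figure D5:**
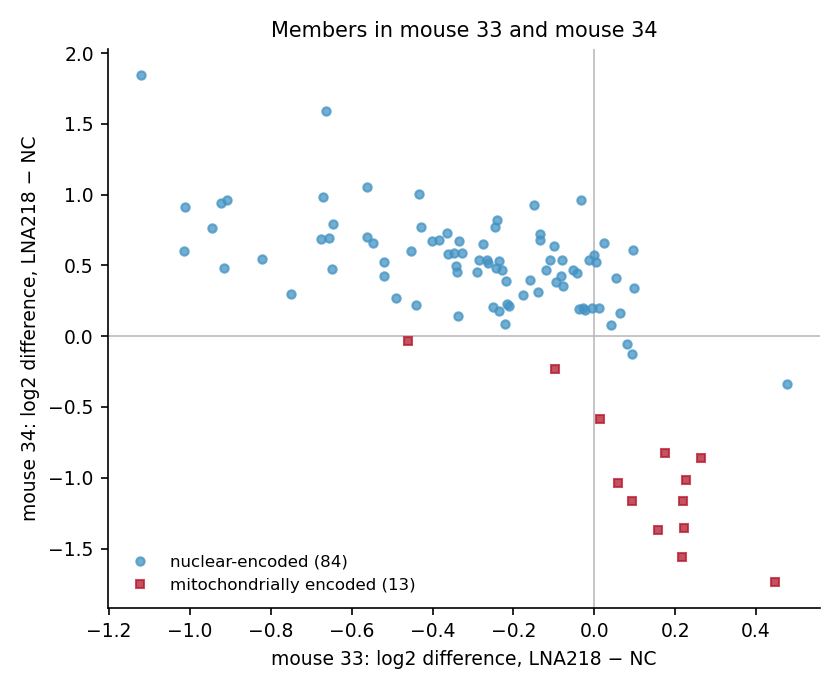
Log2 difference (LNA218 minus NC) of each member in mouse 34 against that in mouse 33, for 84 nuclear-encoded genes (circles) and 13 mitochondrially encoded genes (squares). Nuclear genes lie mostly at the upper left and mitochondrial genes mostly at the lower right.

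In some animals the differences followed transcript properties. Median GC content was 37.1% for the mitochondrial members, 51.7% for the nuclear members and 50.8% for all tested genes, and the nuclear members were short, with a median of 760.5 bases against 2939. Across the 84 nuclear members the difference correlated with GC content at r = -0.32, 0.47, 0.083 and -0.043 in mice 33 to 36, and with log2 length at r = 0.26, -0.32, 0.49 and -0.11. After correction for GC content and length within each library, the nuclear medians were -0.073, 0.19, -0.015 and 0.0080 on the log2 scale in mice 33 to 36. The mitochondrial medians became 0.11, -0.46, -0.28 and -0.27, and the mitochondrial minus nuclear difference -0.26 ± 0.37 (SD, n = 4). The nuclear medians thus shrank in all 4 animals and the mitochondrial ones in mice 33, 34 and 35. In mouse 36 the mitochondrial median moved from 0.032 to -0.27, and the mitochondrial minus nuclear difference from 0.028 to -0.22. The correction was fitted on nuclear genes only and carried over to the mitochondrial members.

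No cell type marker passed the adjusted threshold. At an unadjusted p under 0.05 (edgeR) were 7 of 8 choroid plexus and 5 of 6 fibroblast markers, where 1.70% of all tested genes were. The neuron, oligodendrocyte, erythrocyte, astrocyte, microglia and endothelial lists held 0 such markers. Median log2 fold changes were -0.0041 for astrocyte, 0.048 for microglia and 0.10 for endothelial markers. Of 10 choroid plexus markers, 8 were tested and 8 of 8 had values above 0, with medians of 0.77, 4.75, 0.28 and 3.44 on the log2 scale in mice 33 to 36. In mouse 36, where they were high, the nuclear median was 0.077 and the mitochondrial median 0.032. Of 6 fibroblast markers 6 were fitted above 0, with a summed level of 144 to 208 CPM in LNA218 and 96.0 to 131 in NC. Their medians were 0.91, 1.22, 0.66 and -0.068 in mice 33 to 36. Of 9 neuron markers 7 were below 0, with sums of 6099 to 7185 and 6687 to 7318 CPM, so these defining markers were present in all 8 libraries. Oligodendrocyte markers had medians of -0.25, 0.50, -0.22 and 0.025, the same signs as the nuclear members. All 5 erythrocyte markers were fitted below 0, with medians of -0.26, 0.18, -0.54 and -9.7e-05. No tested marker of these lists was at 0 in any library, and the part of these cell types in the differences of subunit genes was not tested.

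Related gene lists showed which neighbours of the pathway behaved alike. In none of them did a gene pass the adjusted threshold by edgeR. Cytosolic ribosomal protein genes, also short and abundant, had medians of -0.20, 0.49, -0.16 and 0.095 in mice 33 to 36, close to those of the nuclear subunits. Of these 82 genes 57 were fitted above 0, where 47.2% of all tested genes were, and 1 was at an unadjusted p under 0.05. They were higher in LNA218 in 15, 81, 6 and 73 of 82 cases in the 4 animals. Glycolysis genes had -0.23, 0.43, 0.051 and -0.062, with 13 of 15 fitted above 0. The animals disagreed, as 0, 15, 13 and 2 of these 15 genes were higher in LNA218 in mice 33 to 36. Genes of the citric acid cycle and pyruvate oxidation, which feed electrons to the chain, differed little, with 0.0095, 0.12, 0.014 and -0.0077 and 10 of 17 above 0. Assembly factors of the complexes had 25 of 45 above 0 and a median of 0.025, and 22 genes of mitochondrial membranes 15 above 0 and 0.028.

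Genes that maintain and express mitochondrial DNA had a median of 0.020, with 15 of 27 above 0. Of all tested genes 1.70% were at an unadjusted p under 0.05 (edgeR), and of these 27 genes 1 was. That gene was Slirp, which with Lrpprc protects mitochondrial mRNAs, at 12.8 ± 2.44 CPM under LNA218 against 16.2 ± 1.72 CPM under NC (SD, n = 4). It was lower in LNA218 in 4 of 4 animals, by log2 differences of -0.58, -0.26, -0.48 and -0.088, with a log2 fold change of -0.35 ± 0.13 (unadjusted p = 0.0279, adjusted p = 0.999, edgeR). In this list 2 genes were higher and 1 was lower in 4 of 4 animals, where 4.58% and 4.05% of all tested genes were. A part of Slirp in the levels of mitochondrial mRNAs was not tested. Of 12 regulators of mitochondrial biogenesis 10 were fitted below 0, where 52.8% of all tested genes were, with a median of -0.057. The animals disagreed, with medians of 0.15, -0.43, -0.069 and -0.0083 on the log2 scale in mice 33 to 36. In mouse 33, 9 of the 12 were higher in LNA218, and in mouse 36, 6 were. Ppargc1a, the coactivator PGC-1 alpha, had 35.9 ± 10.9 CPM under LNA218 against 40.7 ± 5.01 CPM under NC (SD, n = 4). Its log2 fold change was -0.22 ± 0.20, with differences of 0.20, -1.06, 0.027 and -0.079 in mice 33 to 36. Of 5 electron carriers outside the chosen symbols 4 were fitted above 0, where 47.2% of all tested genes were. The median of the 5 was 0.054. The 1 below 0 was Cycs, the cytochrome c that links complexes III and IV. It was lower in 4 of 4 animals, with -0.14 ± 0.091 (unadjusted p = 0.163, edgeR).

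The authors' deposited table of the same comparison, for which neither the libraries nor the model terms entered are stated, held different values. Cox8b was at -0.022 in the authors' deposited table, against 2.46 here, and the choroid plexus markers had a median of 0.26 in the authors' deposited table, against 2.96 here. The authors' deposited table called 5 of 98 members (5.10%) lower and 0 higher at an adjusted p under 0.05, where 0.148% of all 14884 genes were called lower and 0.0873% higher. The 5 were nuclear: Cox8a of complex IV, Uqcrq and Uqcr11 of complex III, and Ndufs6 and Ndufa3 of complex I. Log2 fold changes in the authors' deposited table were -0.35 for Cox8a (adjusted p = 0.01), -0.28 for Uqcrq (0.0145), -0.40 for Ndufs6 (0.0256), -0.32 for Uqcr11 (0.0338) and -0.30 for Ndufa3 (0.0431). In the paired fit the same genes had -0.14 ± 0.23, -0.070 ± 0.20, -0.069 ± 0.27, -0.074 ± 0.26 and -0.15 ± 0.18 (SE), and none passed. Other settings of the paired fit gave lower values: without mouse 34 they were -0.38, -0.32, -0.39, -0.40 and -0.34, and with 1 surrogate variable -0.37, -0.27, -0.35, -0.35 and -0.30. Without mouse 33 they were 0.15, 0.13, 0.24, 0.21 and -0.025, and none passed in any of these.

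The libraries show how these genes varied. Cox8a was at 193, 450.2, 374 and 365 CPM in LNA218 of mice 33 to 36 and at 389.7, 296, 419 and 364 CPM in NC. Ndufs6, a zinc-binding accessory subunit of complex I, was at 19.7, 53.9, 43.1 and 42.7 CPM in LNA218 and 39.8, 28.5, 54.8 and 38.5 CPM in NC. Both were lower in LNA218 of mouse 33 and higher in LNA218 of mouse 34. Uqcr11 followed with differences of -0.92, 0.94, -0.33 and 0.020 on the log2 scale, Uqcrq with -0.66, 0.69, -0.30 and -0.013 and Ndufa3 with -0.52, 0.43, -0.56 and 0.053. All 5 were lower in mice 33 and 35 and higher in mouse 34. By the authors' deposited table, 89 of 98 members had log2 fold changes below 0, where 55.6% of all genes did, with medians of -0.23 for the 13 mitochondrial and -0.12 for the 85 nuclear members. All 16 nuclear members of complex IV were below 0 in the authors' deposited table, with a median of -0.19.

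Promoters of the nuclear members were searched on both strands for motifs of 3 factors known to act on respiratory genes. The part of these factors in the shared movement of the genes within animals was not tested. Windows from RefSeq (GRCm38.p6) of 300 bases were found for 69 member genes, 74 windows in all. The NRF1 core motif was in 10 windows (13.5%), against 4.41% of 14469 windows of tested genes. The ETS motif CCGGAAG, bound by GABPA, was in 17 (23.0%), against 15.4%, and AAGATGG, part of the YY1 motif, in 11 (14.9%), against 6.61%. The windows of Cox6a1 and Cox8a are printed as examples of windows that hold matches. Both genes are among the highest nuclear members and varied widely between animals. No window with a match was found for Cox4i1 or Atp5b, which had similar levels. Capitals mark 1 NRF1 and 1 ETS match in Cox6a1 and 2 ETS matches in Cox8a, the ETS matches as the reverse complement CTTCCGG. A window that holds matches of several motifs counts under each. A match describes the letters and not binding, and the motif forms were set after a search with other forms.
Cox6a1 (GRCm38.p6, chr5:115348909-115349208, minus strand): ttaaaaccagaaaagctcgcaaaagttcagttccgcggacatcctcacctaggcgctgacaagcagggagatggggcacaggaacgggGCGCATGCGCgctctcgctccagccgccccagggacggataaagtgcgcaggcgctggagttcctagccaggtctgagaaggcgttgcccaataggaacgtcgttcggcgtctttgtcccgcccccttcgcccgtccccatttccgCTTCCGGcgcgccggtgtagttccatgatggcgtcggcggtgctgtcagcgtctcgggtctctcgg
Cox8a (GRCm38.p6, chr19:7217567-7217866, minus strand): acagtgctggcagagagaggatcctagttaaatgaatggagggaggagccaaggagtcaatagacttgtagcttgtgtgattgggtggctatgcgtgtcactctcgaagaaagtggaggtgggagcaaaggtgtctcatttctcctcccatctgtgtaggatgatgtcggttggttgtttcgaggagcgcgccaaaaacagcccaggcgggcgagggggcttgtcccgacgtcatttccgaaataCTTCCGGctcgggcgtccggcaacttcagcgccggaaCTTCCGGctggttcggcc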

How the data were processed

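RNA was measured in 8 libraries, 4 LNA218 and 4 NC, from both hemispheres of 4 mice. The deposited count table holds estimated counts per gene. The submitters' processing notes name Salmon, edgeR and GRCm39 without role or version, with annotation and strand setting not given in the sources used here. One more deposited sheet holds natural log values that equal ln(CPM + 1) to within 0.0039, and it served for that check only. Per gene, the authors' deposited comparison lists a log2 fold change, a mean log2 CPM, a score (likelihood ratio), a p-value and its adjusted form.

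Estimated counts were rounded, and filterByExpr with a minimum count of 10 kept 14506 genes and removed 378. LNA218 and NC were compared in edgeR 4.0.16 (R 4.3.3) by the quasi-likelihood method, with TMM factors, robust estimation, a block for animal, and Benjamini-Hochberg adjusted p over all tested genes called at 0.05. The block follows the study's design, in which both hemispheres belong to 1 animal. Deviations of paired libraries from their group means correlated, over 10512 genes with a log2 CPM above 3, at 0.10, -0.60, 0.42 and 0.21 in mice 33, 34, 35 and 36. SE is from the F statistic, and within-animal differences are of TMM-scaled log2 CPM with a prior count of 2. Lengths, GC content and 3′ UTRs came from 1 GENCODE M21 transcript per gene (GRCm38, not the build named by the submitters), with values for 14385 tested genes (99.2%) and all tested members.

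The members and lists were chosen with earlier results of these data known, and medians over them carry no test. A naming rule picked all mitochondrial members and, per complex, the 3 nuclear members with the smallest p. It also took the 2 with the largest fold change and the 2 with the highest level per complex. The isoform pairs, the members called in the authors' deposited table and the 3 genes with the smallest p of each list completed it. Not all of these are described: Ndufb5, Ndufb9 and Ndufa4l2 are left out. From the lists of genes outside the members, only Slirp, Ppargc1a and Cycs are described. Uqcrc2, Ndufs1, Ndufb1, Ndufb4 and Ndufa10, outside the rule, were added after their values or seed matches were seen. Alternatives were no block, other scalings and filters, DESeq2 1.42.0, limma-voom (limma 3.58.1), a hemisphere term, splines of GC content and length with 5 degrees of freedom per library, 1 surrogate variable (sva 3.50.0), a threshold of 0.1, a prior count of 0.5 and each animal left out. Leaving out mice 34 and 36, or 33 and 34, was chosen after seeing the data. Promoter motifs were shortened or widened to their present form after a search with other forms. The scripts were tested on simulated data.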

Additional observations from a re-analysis of the deposited data

Results flagged for a closer look

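Of 98 sets of 4 libraries examined, 4 held a library whose gap to the others was large for the range of its group. Chance gives about 1 in 20, so this count is no more than chance gives, and the 4 are listed as a description only. The nuclear members' share of estimated counts in NC of mouse 34 was 0.999856%, below 1.16 to 1.19% in the other NC libraries. The same library was low in Cox4i1, at 8.67 log2 CPM against 9.05 to 9.08, and in Atp5g3, at 7.64 against 7.84 to 7.88 log2 CPM. mt-Atp6 was high in NC of mouse 35, at 10.92 log2 CPM against 9.51 to 9.65 in the other NC libraries.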

How the results depend on the processing

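No member was called in any alternative run. Over all genes the paired test called 0, and the count was 13 with DESeq2, 8 with 1 surrogate variable beside the replicate block, 13 without mice 34 and 36, 7 without mice 33 and 34, and 0 to 12 with single animals left out, the 12 being without mouse 34. With no replicate block the median log2 fold change was 0.057 for nuclear and -0.33 for mitochondrial members, and the block changed no call. The mitochondrial median stayed below 0 in each alternative, from -0.57 to -0.14 with single animals left out. The nuclear median ran from -0.10 to 0.16 with single animals left out, and was -0.014 with a hemisphere term, -0.071 with 1 surrogate variable, -0.20 without mice 34 and 36 and -0.027 without mice 33 and 34. The mitochondrial minus nuclear difference ran from -0.71 to -0.065 with single animals left out. Of the 47 members picked by the naming rule 29 turned sign in at least 1 alternative, 25 of the 47 having estimates within 1 SE of 0. Of the 13 mitochondrial members 0 turned sign, but every alternative kept mouse 34 or mouse 35, in which all 13 were lower in LNA218. Mice 33 and 36 had mitochondrial medians above 0, at 0.17 and 0.032, and a fit without mice 34 and 35 was not run. The unchanged signs therefore do not show that the direction holds over animals. Without mice 34 and 36, Atp5e was at -0.15, Atp5g3 at -0.056, Ndufa11 at -0.017, Ndufs7 at -0.11 and Uqcrc1 at -0.015, and without mice 33 and 34 Atp5e was at -0.032. Atp5e ran from -0.029 to 0.38 with single animals left out. The cause of these shifts was not tested. The design has 4 pairs and 3 residual degrees of freedom, and the lowest adjusted p of a member picked by the naming rule was 0.318 over the alternatives.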
